A study of Homo sapiens with 6 samples.

Results

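The genes described here are 35 human genes of the ATF4 response and of protein folding in the endoplasmic reticulum (ER), taken from a list of names. The rule uses no measured value, but the list was drawn up with earlier results of these data known. All 35 were found when the 58381 Ensembl gene identifiers of the count table were mapped to symbols, and all 35 passed the filter on low counts. The study sequenced RNA from MOLM-13, an established human acute myeloid leukaemia line grown in RPMI medium with 10% serum, and every value comes from this 1 line. One group received 5 µM of DB2115, which the labels give only by this code name, and the other received the vehicle, 0.001% DMSO. Both groups were harvested after 20 h. The labels list 3 samples per group, but the third count column of each group was close to the sum of the other columns (equal in 85.6% of vehicle and 86.3% of DB2115 genes with counts), so each comparison rests on 2 libraries per group, called A and B. The labels do not say whether the libraries came from separate cultures, and the p-values therefore measure only the spread between these libraries.

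ATF4 is a leucine zipper transcription factor at the centre of the integrated stress response. When a kinase such as PERK or GCN2 phosphorylates the initiation factor eIF2α, most translation slows while that of the ATF4 message increases, and ATF4 then activates genes of amino acid supply, redox balance and feedback. Misfolded proteins in the ER also engage the unfolded protein response, whose sensors IRE1α, ATF6 and PERK control chaperones, disulfide-forming enzymes and the machinery that returns misfolded proteins to the cytosol for degradation. Counts per gene show transcript abundance only: neither ATF4 translation, eIF2α phosphorylation, ATF6 cleavage nor the splicing of XBP1 by IRE1α can be read from them.

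With DB2115, 22 of the 35 genes fell and 5 rose, and 8 were not called (edgeR quasi-likelihood test, Benjamini-Hochberg adjusted p under 0.05 over all 17219 genes tested). The falls made up 62.9% of the 35 genes, against 31.3% of all genes tested. The rises made up 14.3%, against 32.7% of all genes. In either direction 64.1% of all genes were called, so a call by itself is common in this comparison. Libraries did not overlap between groups for 25 of the 35 genes with lower and 6 with higher values under DB2115. Over all 17219 genes tested these numbers were 6778 and 7226, so groups without overlap are common too. At least 2-fold falls were found for 8 of the 35 genes (22.9%), against 9.53% of all genes. These were ASNS, STC2, EDEM1, ERO1A, ATF5, SDF2L1, CHAC1 and ERO1B. A rise of at least 2-fold was found for NUPR1 alone among the 35, against 17.5% of all genes. NUPR1 had 10 and 7 counts in vehicle and passed the filter on low counts through its DB2115 libraries. It would scarcely have been tested without a rise, as holds for any gene nearly silent in vehicle. The median log2 fold change was -0.49 over the 35 genes and 0.03 over all genes tested. Library totals ran from 36547900 to 42446253 counts, and levels are given as CPM, counts relative to the library size after TMM scaling. In bulk RNA of this kind a smaller number of cells of some kind and less transcript per cell cannot be told apart.

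**Figure D1:**
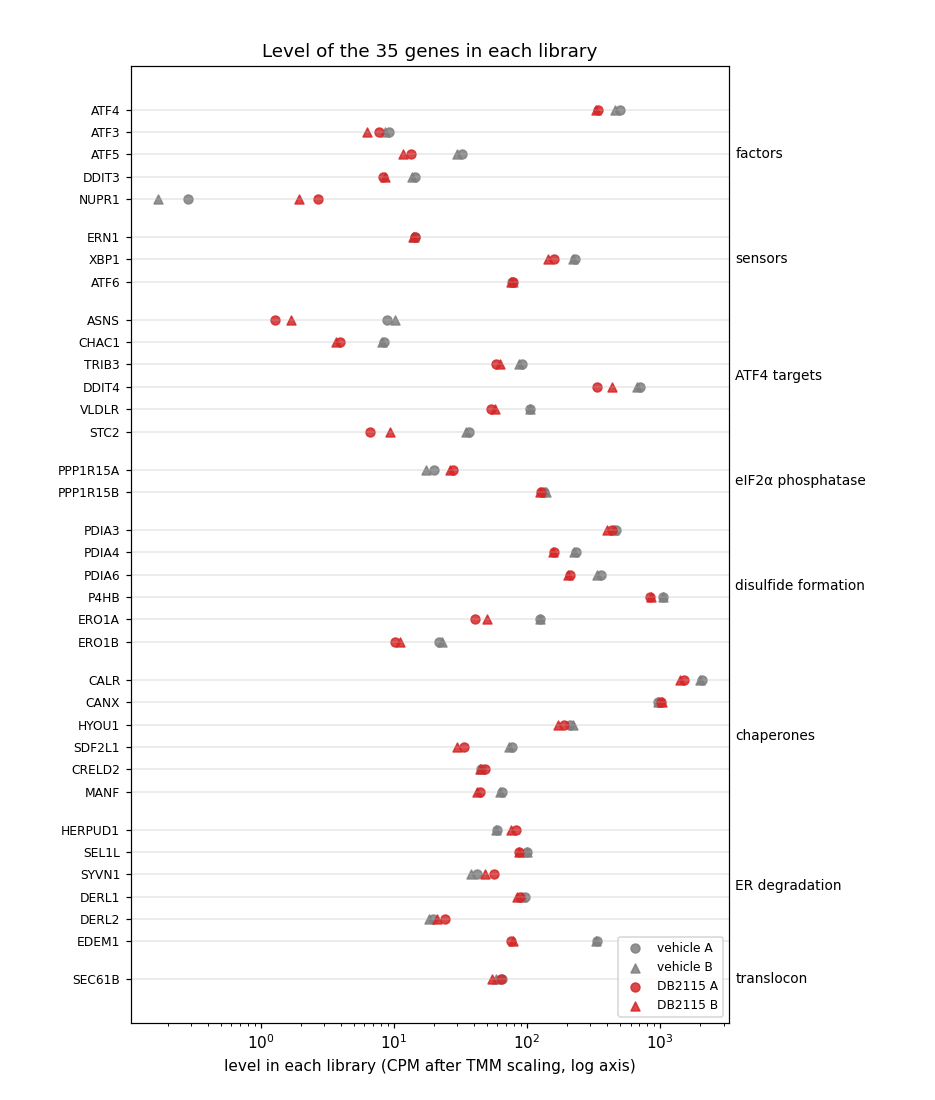
Level of each of the 35 genes in the 4 libraries, in CPM after TMM scaling on a log axis, with vehicle in grey, DB2115 in red, library A as circles and library B as triangles. Grey and red points lie apart for most genes, as is common over all genes tested. NUPR1 has its red points to the right at 2.71 and 1.93 CPM, and ERN1 and ATF6 have all 4 points nearly superimposed.

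Promoter sequences were examined for 4 elements known from these pathways, as a description. Genes and elements come from the same pathways, so the shares below are not a test. Of the 35 genes, 32 had a promoter window in the RefSeq table (build GRCh38.p14), which spans 250 bases before to 50 bases after each annotated start, 300 bases in all, and both strands were searched. The ER stress response element ERSE, here CCAAT and CCACG separated by 9 bases, was found in the windows of XBP1, PDIA6, ERO1B, CALR, CANX and CRELD2, 6 genes or 18.8% of the 32, against 0.0916% of 27305 genes with a window. ERSE-II, ATTGG and CCACG separated by 1 base, was found in HYOU1, SDF2L1 and HERPUD1, or 9.38%, against 0.0696% of all genes. The element TGACGTGG, associated with XBP1 and ATF6, was found in HYOU1 only, where it overlaps an ERSE-II match, against 0.927% of all genes. The C/EBP-ATF element TGATGNAA, associated with ATF4, was found in ATF3, ASNS, CHAC1, PPP1R15B and HERPUD1, 5 genes or 15.6%, against 4.46% of all genes. In all, 13 of the 32 genes held at least 1 of the 4 elements. A match describes letters in a window and does not show that a factor was bound.

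Matched elements stand before genes that fell, before genes that were not called and before HERPUD1, the only gene with a match that rose. The 6 sequences below are those of the 3 genes with the lowest and the 3 with the highest fold change among the genes with a match. They are RefSeq sequences of GRCh38.p14, written 5′ to 3′ on the strand of the gene, with the element in capitals. Positions count from the RefSeq start site. The elements lie at -68 to -61 in ASNS (chr7:97872458-97872487, minus strand), at -188 to -178 in SDF2L1 (chr22:21642052-21642260, plus strand) and at -209 to -202 in CHAC1 (chr15:40953251-40953280, plus strand). HERPUD1 (chr16:56931892-56932047, plus strand) holds a reverse-strand TGATGNAA match at -176 to -169 and an ERSE-II at -117 to -107. The ERSE of CANX (chr5:179698773-179698802, plus strand) lies at -151 to -133 and that of CRELD2 (chr22:49918459-49918633, plus strand) at -80 to -62. The matches of SDF2L1, CHAC1 and CRELD2 are on the strand opposite to the gene.
ASNS: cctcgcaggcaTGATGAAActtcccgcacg
SDF2L1: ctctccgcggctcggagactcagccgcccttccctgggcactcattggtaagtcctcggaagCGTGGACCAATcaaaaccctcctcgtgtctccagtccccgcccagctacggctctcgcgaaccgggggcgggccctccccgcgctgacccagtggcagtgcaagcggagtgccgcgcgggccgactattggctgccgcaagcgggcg
CHAC1: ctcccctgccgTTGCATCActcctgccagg
HERPUD1: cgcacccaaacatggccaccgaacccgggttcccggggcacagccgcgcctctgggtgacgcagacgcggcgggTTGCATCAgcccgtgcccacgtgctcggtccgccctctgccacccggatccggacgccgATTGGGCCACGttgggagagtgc
CANX: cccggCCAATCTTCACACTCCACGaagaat
CRELD2: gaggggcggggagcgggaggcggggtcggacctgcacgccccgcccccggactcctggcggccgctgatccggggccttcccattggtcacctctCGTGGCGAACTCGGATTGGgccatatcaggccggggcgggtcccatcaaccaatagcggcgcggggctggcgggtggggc

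**Figure D2:**
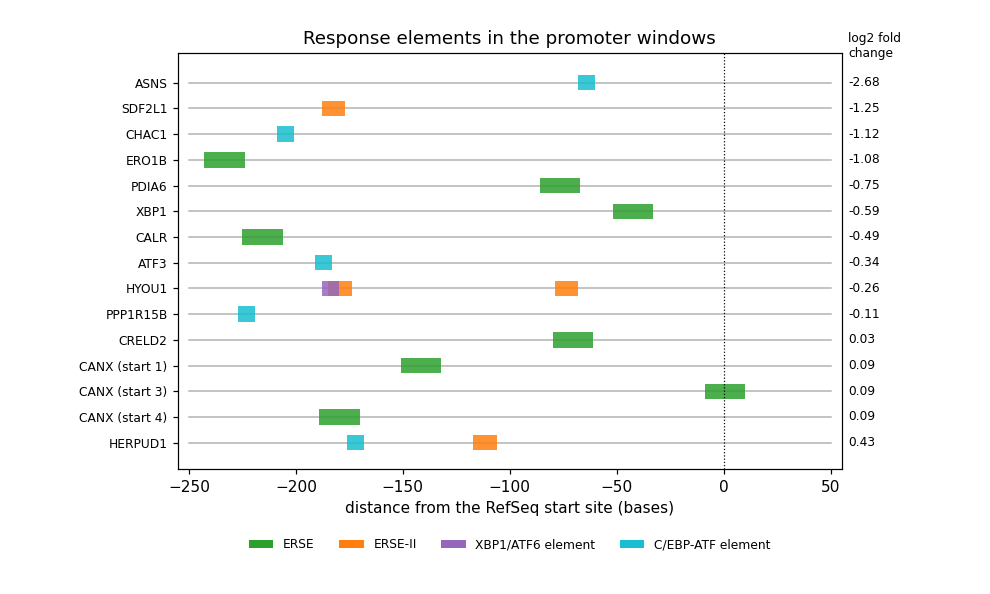
Position of the matched elements in the promoter windows of the 13 genes with a match, in bases from the RefSeq start site (dotted line), with the log2 fold change at the right and genes ordered by it. ERSE matches (green) stand in front of ERO1B, with a log2 fold change of -1.08, and in front of CANX, not called, with one of 0.09.

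Of the 6 genes with an ERSE, XBP1, PDIA6, ERO1B and CALR fell, and CANX and CRELD2 were not called. Of the 3 with an ERSE-II, HYOU1 and SDF2L1 fell and HERPUD1 rose. Of the 5 with TGATGNAA, ATF3, ASNS and CHAC1 fell, HERPUD1 rose and PPP1R15B was not called. HERPUD1 was thus the only gene with a match that rose, and the others fell or were not called.

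Among the transcription factors of the response, ATF4, ATF5, DDIT3 and ATF3 fell, whereas the co-regulator NUPR1 rose. ATF4 (chromosome 22, 39519695 to 39522685 on hg38) stood at 498 and 460.1 CPM in vehicle libraries A and B and at 339.6 and 331 CPM with DB2115. Both DB2115 libraries lay below both vehicle libraries, and the fall was 1.43-fold (log2 fold change -0.52, SE 0.06, edgeR adjusted p = 1.02e-05). ATF5, a related factor whose translation is also raised by eIF2α phosphorylation, went from 32.6 and 29.6 CPM to 13.5 and 11.7 CPM, a 2.47-fold fall (log2 fold change -1.31, SE 0.10, adjusted p = 9.66e-08). DDIT3, which encodes CHOP, a pro-apoptotic factor downstream of ATF4, stood at 14.5 and 13.7 CPM in vehicle and at 8.28 and 8.55 CPM with DB2115. Its libraries did not overlap between groups, and the fall was 1.67-fold (log2 fold change -0.74, SE 0.11, adjusted p = 4.34e-05).

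ATF3, a factor induced by many stresses, had the weakest fall of the 4. It stood at 9.20 and 8.65 CPM in vehicle and at 7.80 and 6.33 CPM with DB2115 (log2 fold change -0.34, SE 0.14, adjusted p = 0.0464). The lower vehicle library was close to the higher DB2115 library, and the call was lost under DESeq2 (adjusted p = 0.121), under upper-quartile scaling (0.139), under total-count scaling (0.133), with 1 CPM required in 3 libraries (0.118), and without vehicle library A (0.184), vehicle library B (0.0740) or DB2115 library B (0.241). NUPR1, a small stress-induced chromatin-associated protein, moved the other way from a very low level. It had 10 and 7 counts in vehicle and 111 and 80 with DB2115, or 0.285 and 0.170 against 2.71 and 1.93 CPM. The rise was 10.3-fold (log2 fold change 3.36, SE 0.40, adjusted p = 8.25e-06), the largest in either direction among the 35 genes, and it rests on few vehicle counts. NUPR1 passed the count filter through its DB2115 libraries.

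The ratio of counts within a library does not depend on how libraries are scaled. ATF5 counts were 0.0654 and 0.0644 of the ATF4 counts in vehicle and 0.0397 and 0.0354 with DB2115, lower in both DB2115 libraries. DDIT3 counts were 0.0291 and 0.0298 of ATF4 in vehicle and 0.0244 and 0.0259 with DB2115, a smaller shift without overlap between the groups. Part of the exon sequence of both genes overlaps a gene on the opposite strand, and no source used here gives the strand setting of the counting. For DDIT3 this is 27.2% of its exon bases, shared with the methionyl-tRNA synthetase gene MARS, which had 15713 and 18734 counts in vehicle and 7672 and 7048 with DB2115. For ATF5 it is 21.2%, shared with the nucleoporin gene NUP62, which had between 4824 and 6914 counts. How far these reads enter the values of DDIT3 and ATF5 was not tested.

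The sensor genes ERN1 and ATF6 were not called, whereas XBP1 fell. ERN1, which encodes the kinase and ribonuclease IRE1α, stood at 14.5 and 14.1 CPM in vehicle and at 14.5 and 14.0 CPM with DB2115. The groups overlapped, and the log2 fold change was 0.00 (SE 0.09, adjusted p = 0.983). ATF6, the membrane-bound factor that is cut to its active form in the Golgi, stood at 76.9 and 79.2 CPM in vehicle and at 78.2 and 75.9 CPM with DB2115 (log2 fold change -0.02, SE 0.06, adjusted p = 0.811). Its sign turned positive, still without a call, under upper-quartile and total-count scaling. XBP1, whose message is the substrate of IRE1α, went from 231 and 223 CPM to 158 and 143 CPM. Both DB2115 libraries lay below both vehicle libraries, a 1.51-fold fall (log2 fold change -0.59, SE 0.06, adjusted p = 3.77e-06).

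The 6 genes grouped here as targets of ATF4 or of the wider stress response all fell, 3 of them at least 2-fold. Their median log2 fold change was -1.03. The group does not hold every stress-response gene of the 35, and NUPR1, PPP1R15A and HERPUD1, placed in other groups, rose. ASNS, asparagine synthetase (chromosome 7, 97852118 to 97872542, minus strand), whose TGATGNAA element is printed above, went from 8.83 and 10.1 CPM to 1.27 and 1.69 CPM. This 6.40-fold fall was the largest of the 35 genes (log2 fold change -2.68, SE 0.18, adjusted p = 4.69e-08). ASNS counts were 0.0177 and 0.0221 of the ATF4 counts in vehicle and 0.00374 and 0.00512 with DB2115. Of its exon bases, 44.6% are shared on the same strand with the non-coding transcript AC079781.5, which had 135 and 174 counts in vehicle and 68 and 49 with DB2115, so reads there cannot be assigned with certainty.

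STC2, the secreted glycoprotein stanniocalcin-2 (chromosome 5, 173314713 to 173329503, minus strand), stood at 36.8 and 35.0 CPM in vehicle and at 6.57 and 9.32 CPM with DB2115. It was 4.51-fold lower (log2 fold change -2.17, SE 0.13, adjusted p = 1.11e-08), and DB2115 library A lay below library B. CHAC1, an enzyme that degrades glutathione, went from 8.48 and 8.11 CPM to 3.93 and 3.67 CPM, a 2.18-fold fall (adjusted p = 1.59e-05). VLDLR, a lipoprotein receptor induced in ER stress, went from 106 and 105 CPM to 53.3 and 57.4 CPM, a 1.91-fold fall (adjusted p = 5.12e-08). DDIT4, the mTORC1 inhibitor REDD1, had the highest level per kilobase of exon of these 6 genes. It stood at 708 and 666 CPM in vehicle and at 338 and 434 CPM with DB2115, a 1.78-fold fall with library A again below library B (log2 fold change -0.83, SE 0.10, adjusted p = 6.21e-06). TRIB3, a pseudokinase that restrains ATF4 and AKT signalling, went from 91.6 and 87.0 CPM to 58.8 and 63.0 CPM (log2 fold change -0.55, SE 0.07, adjusted p = 9.56e-06).

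Ratios to the ATF4 count differed among these targets. TRIB3 counts were 0.184 and 0.189 of the ATF4 counts in vehicle and 0.173 and 0.191 with DB2115, so the groups overlapped in this ratio. CHAC1 counts were 0.0170 and 0.0176 of ATF4 in vehicle and 0.0116 and 0.0111 with DB2115, without overlap. The summed level of the 6 targets was 960 and 911 CPM in vehicle and 462 and 569 CPM with DB2115, a ratio of the means of 0.551. An exact two-sided permutation test over 2 against 2 libraries cannot give a p below 0.333, and gave 0.333 here.

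Of the regulatory subunits that direct protein phosphatase 1 to eIF2α, PPP1R15A rose and PPP1R15B was not called. PPP1R15A, the stress-inducible subunit GADD34, went from 20.1 and 17.6 CPM to 27.9 and 26.2 CPM (log2 fold change 0.53, SE 0.09, adjusted p = 0.000221). Both DB2115 libraries lay above both vehicle libraries. PPP1R15B, the constitutive subunit CReP, stood at 135 and 139 CPM in vehicle and at 127 and 126 CPM with DB2115, and was not called (log2 fold change -0.11, SE 0.06, adjusted p = 0.105). The count ratio of PPP1R15A to PPP1R15B was 0.148 and 0.127 in vehicle and 0.219 and 0.208 with DB2115. The summed level of both subunits was 156 ± 0.603 CPM in vehicle and 154 ± 1.86 CPM with DB2115 (SD, n = 2).

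**Figure D3:**
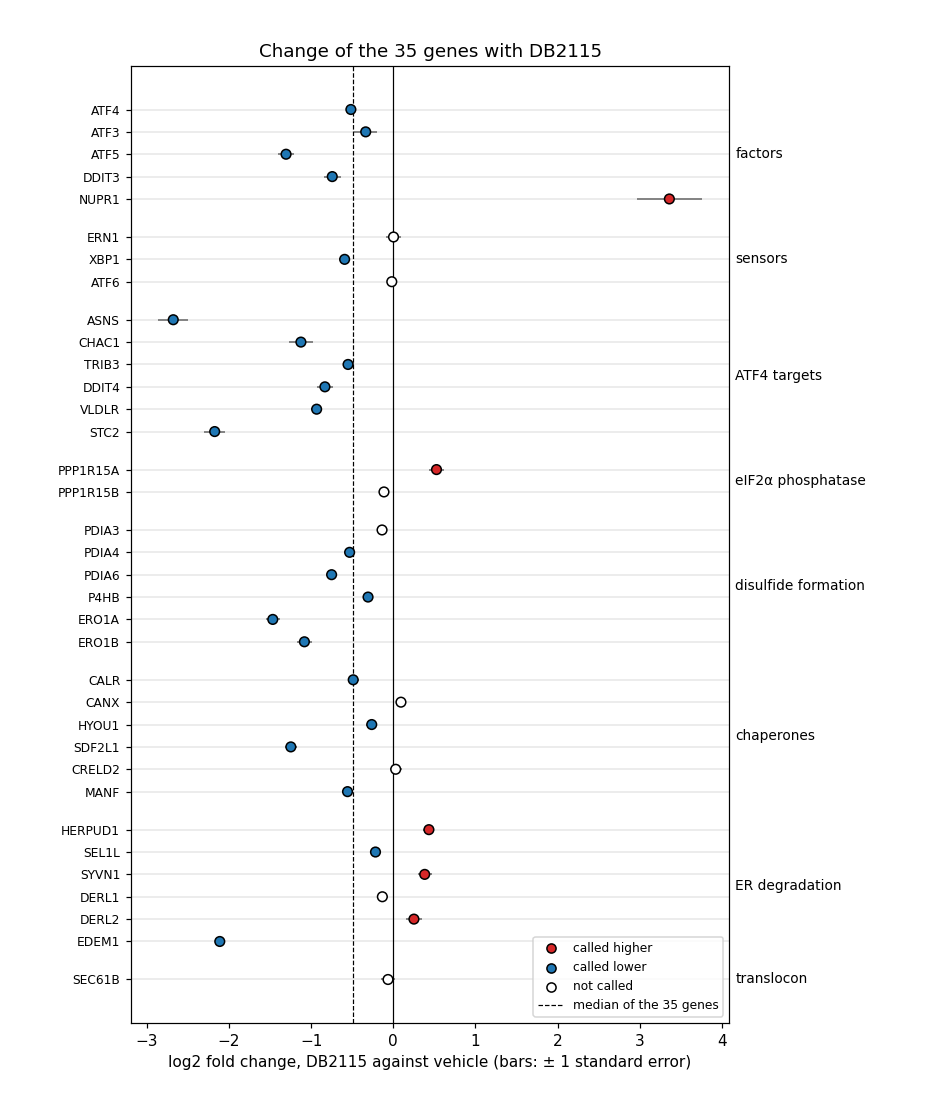
Log2 fold change of each of the 35 genes, DB2115 against vehicle, with bars of 1 standard error, filled red where called higher, blue where called lower and open where not called. The dashed line is the median of the 35 genes at -0.49. All 6 genes of the group labelled ATF4 targets lie left of 0, and the ER degradation genes lie on both sides. NUPR1 and PPP1R15A, in other groups, lie to the right.

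Of the 6 genes that form and rearrange disulfide bonds in the ER, 5 fell and PDIA3 was not called. The oxidases that pass electrons from protein disulfide isomerase to oxygen fell most. ERO1A went from 126 and 125 CPM to 40.9 and 49.9 CPM, a 2.76-fold fall (log2 fold change -1.47, SE 0.08, adjusted p = 8.38e-09). ERO1B, the second oxidase, went from 22.0 and 23.0 CPM to 10.2 and 11.1 CPM, a 2.12-fold fall (log2 fold change -1.08, SE 0.09, adjusted p = 4.53e-07). No DB2115 library of either gene reached the vehicle range. ERO1A counts were 5.71 and 5.45 times those of ERO1B in vehicle and 4.01 and 4.51 times with DB2115.

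The isomerases fell less. PDIA6 went from 361 and 337 CPM to 211 and 204 CPM (log2 fold change -0.75, SE 0.06, adjusted p = 2.05e-07), and PDIA4 from 234 and 226 CPM to 161 and 158 CPM (-0.53, SE 0.06, adjusted p = 3.55e-06). P4HB, the classical protein disulfide isomerase, went from 1046.5 and 1049.9 CPM to 842 and 852 CPM, a 1.24-fold fall (log2 fold change -0.31, SE 0.06, adjusted p = 0.000718). The libraries of these 3 genes did not overlap between groups. PDIA3, which encodes ERp57 and acts on glycoproteins held by calnexin and calreticulin, stood at 469.8 and 448 CPM in vehicle and at 436 and 398 CPM with DB2115. It was not called (log2 fold change -0.14, SE 0.07, adjusted p = 0.0836), although it was called lower with no count filter (adjusted p = 0.0465), without DB2115 library A (0.00597) and in a fit with the column letter as a block (0.0205).

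Of 6 chaperones and secretable ER proteins, CALR, HYOU1, SDF2L1 and MANF fell, and CANX and CRELD2 were not called. SDF2L1, an ER-resident partner of BiP and its DnaJ co-chaperones, fell most in this group, from 77.1 and 73.3 CPM to 33.6 and 29.8 CPM (2.37-fold, log2 fold change -1.25, SE 0.08, adjusted p = 1.39e-08). The lectin chaperones calreticulin and calnexin hold new glycoproteins until they have folded. CALR, the soluble one, went from 2069 and 2004 CPM to 1502 and 1402 CPM, a 1.40-fold fall (log2 fold change -0.49, SE 0.07, adjusted p = 3.58e-05). CANX, the membrane-bound one, stood at 963 and 957 CPM in vehicle and at 1008 and 1039 CPM with DB2115 (log2 fold change 0.09, SE 0.06, adjusted p = 0.212). It was called higher, at 0.19, under upper-quartile (adjusted p = 0.0177) and total-count scaling (0.0168), and at 0.18 with 1 CPM required in 3 libraries (0.0309). The count ratio of CALR to CANX, which no scaling changes, was 2.15 and 2.09 in vehicle and 1.49 and 1.35 with DB2115.

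MANF, a secreted ER stress protein, went from 65.2 and 62.5 CPM to 44.4 and 42.4 CPM (log2 fold change -0.56, SE 0.07, adjusted p = 9.21e-06). HYOU1, a large HSP70-like exchange factor for BiP, went from 209.9 and 221 CPM to 189.7 and 169.7 CPM (-0.26, SE 0.07, adjusted p = 0.00387). In both genes the DB2115 libraries lay below the vehicle libraries. CRELD2, another secretable ER stress protein, stood at 45.4 and 45.1 CPM in vehicle and at 48.3 and 44.0 CPM with DB2115, so the groups overlapped (log2 fold change 0.03, SE 0.07, adjusted p = 0.745).

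Genes of ER-associated degradation moved in both directions, with HERPUD1, SYVN1 and DERL2 higher, EDEM1 and SEL1L lower and DERL1 not called. EDEM1 (chromosome 3, 5187646 to 5219957), which promotes the removal of misfolded glycoproteins by mannose trimming, stood at 335 and 332 CPM in vehicle and at 76.0 and 78.4 CPM with DB2115. The libraries of each group lay close together and the groups far apart, a 4.32-fold fall with the smallest adjusted p of the 35 genes (log2 fold change -2.11, SE 0.06, adjusted p = 1.84e-11). HERPUD1, a membrane scaffold of the degradation complex, rose from 59.8 and 58.1 CPM to 82.9 and 76.2 CPM (1.35-fold, log2 fold change 0.43, SE 0.07, adjusted p = 9.21e-05). Counts of HERPUD1 were 0.178 and 0.175 of those of EDEM1 in vehicle and 1.09 and 0.972 with DB2115.

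The ubiquitin ligase of this complex was higher and its adaptor lower. SYVN1, the ligase HRD1, rose from 42.2 and 37.9 CPM to 56.2 and 48.0 CPM (log2 fold change 0.38, SE 0.09, adjusted p = 0.00177). Of its exon bases, 7.24% are shared on the same strand with FAU, which had between 12473 and 15971 counts. A further 6.48% are shared with MRPL49 on the opposite strand. How far such reads enter the values of SYVN1 was not tested. SEL1L, the adaptor of HRD1, went from 101 and 100.5 CPM to 86.5 and 86.8 CPM (-0.22, SE 0.06, adjusted p = 0.00638). The SEL1L call was lost under upper-quartile scaling (-0.12, adjusted p = 0.0866), total-count scaling (adjusted p = 0.0879) and with 1 CPM required in 3 libraries (adjusted p = 0.0538). EDEM1 counts were 3.33 and 3.30 times those of SEL1L in vehicle and 0.878 and 0.904 times with DB2115. DERL2, a derlin of the retrotranslocation channel, stood at 19.7 and 18.4 CPM in vehicle and at 24.0 and 21.2 CPM with DB2115 (log2 fold change 0.25, SE 0.09, adjusted p = 0.0311). That call was lost under DESeq2 (adjusted p = 0.0901) and without vehicle library A (0.0540), vehicle library B (0.236) or DB2115 library A (0.181). DERL1, the related derlin, stood at 97.1 and 92.1 CPM in vehicle and at 88.5 and 83.9 CPM with DB2115 (-0.13, SE 0.06, adjusted p = 0.0848). It was called lower without DB2115 library A (adjusted p = 0.0333) and with the column letter as a block (0.0355). The ratio of DERL1 to DERL2 counts was 4.93 and 5.01 in vehicle and 3.68 and 3.96 with DB2115.

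SEC61B, the beta subunit of the translocon through which new proteins enter the ER, stood at 65.2 and 59.0 CPM in vehicle and at 64.1 and 54.5 CPM with DB2115. The groups overlapped and no change was called (log2 fold change -0.06, SE 0.08, adjusted p = 0.526). The sign turned under upper-quartile and total-count scaling, and the gene was called lower without DB2115 library A (-0.19, adjusted p = 0.0299).

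Together the 19 disulfide, chaperone, degradation and translocon genes had a lower summed level with DB2115. Their summed level was 6408 and 6270.4 CPM in vehicle and 5005.5 and 4849 CPM with DB2115 on the TMM scale. The ratio of these means was 0.777, and the exact two-sided permutation test gave p = 0.333, the smallest it can give. As an unscaled share of all counts, the 19 genes made up 0.616% and 0.610% in vehicle and 0.511% and 0.506% with DB2115, a ratio of 0.830. On the TMM scale the sum was 0.625 of the vehicle mean for the 6 degradation genes, 0.755 for the 6 disulfide genes and 0.818 for the 6 chaperones. The degradation sum went from a mean of 647 to 404 CPM, and EDEM1 alone from 334 to 77.2 CPM. That ratio thus reflects EDEM1, whereas HERPUD1, SYVN1 and DERL2 of the same group rose. CALR, CANX and P4HB made up 63.8% of the summed level of the 19 genes in vehicle and 67.4% with DB2115. Levels per kilobase divide by all annotated exon bases of a gene, not by the length of the transcript expressed, so the order of genes is approximate. On this scale the highest level of the 35 genes was that of CALR, with 750.3 CPM per kb in vehicle and 535 with DB2115. It was followed in vehicle by DDIT4 (334 CPM per kb), P4HB (198), ATF4 (191), CANX (154) and PDIA3 (108). With DB2115 the order below CALR was DDIT4 (187), CANX (164), P4HB (159.7), ATF4 (133) and PDIA3 (98.4). On this scale CANX then stood above P4HB and ATF4.

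Other genes of the same pathways, taken from lists of known members, were set beside these values. Of 34 other ATF4 targets tested, 30 fell (88.2%, against 31.3% of all genes tested), 19 of them at least 2-fold (55.9%, against 9.53%). A rise was called for 3 (8.82%, against 32.7%), SESN2 was not called, and the median log2 fold change was -1.21. Those with the smallest adjusted p among the falls were the cationic amino acid transporter SLC7A1 (292 ± 11.0 to 57.9 ± 2.51 CPM, SD, n = 2, log2 fold change -2.33), the large neutral amino acid transporter SLC7A5 (-2.08) and the translation repressor EIF4EBP1 (183 ± 10.9 to 35.3 ± 2.76 CPM, -2.37). The rises were those of the cytokine GDF15 (0.654 ± 0.000629 to 15.4 ± 1.96 CPM, 4.55), the leucine zipper factor CEBPB (15.8 ± 2.36 to 34.9 ± 0.578 CPM, 1.15) and the repressor JDP2 (0.86). FGF21 had no count in any library and was not tested. Of 14 genes of the eIF2 kinases, eIF2 and its exchange factor eIF2B, 8 fell (57.1%, against 31.3% of all genes). Of the same 14, 2 rose (14.3%, against 32.7%), and the median was -0.22. Under upper-quartile scaling 7 fell and 3 rose. The kinase genes EIF2AK2, which encodes PKR (0.67), and EIF2AK3, which encodes PERK (0.32), rose, whereas EIF2AK4, which encodes GCN2 (-0.29), and EIF2AK1, which encodes HRI (-0.15), fell. The call of EIF2AK3 was lost under DESeq2 (adjusted p = 0.0540) and without vehicle library A (0.128). EIF2AK1 and EIF2AK4 were singled out after their values were seen, and the call of EIF2AK1 changed with the scaling. The falls with the smallest adjusted p were those of the GCN2 inhibitor IMPACT (-1.67) and the eIF2B subunits EIF2B3 (-1.53) and EIF2B1 (-0.90).

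Among 19 other ER chaperones and folding enzymes tested, 14 fell (73.7%, against 31.3% of all genes) and 2 rose (10.5%, against 32.7%). The median log2 fold change was -0.36, and under upper-quartile scaling 13 fell and 5 rose. The thioredoxin-domain proteins TXNDC5 (39.6 ± 0.446 to 11.2 ± 0.509 CPM, -1.82) and PDIA5 (-1.24) and the HSP70-family member HSPA13 (-0.80) fell. HSPA5, which encodes BiP (-0.30), and HSP90B1, which encodes GRP94 (-0.39), also fell and were singled out after their values were seen. DNAJC10, an ER reductase with a J domain, rose from 128 ± 0.370 to 203 ± 4.76 CPM (0.67). PDIA2 had 0 and 4 counts in vehicle and 13 and 12 with DB2115, and its log2 fold change of 2.48 became 1.62, without a call, without vehicle library A and 6.58 without vehicle library B. CALR3 was too low to test. Of 18 other degradation genes, 6 fell and 3 rose (median -0.04), against 6 and 5 under upper-quartile scaling. The 33.3% that fell were close to the 31.3% of all genes, and the 16.7% that rose were below the 32.7% of all genes. UBE2G2 (-0.99), a ubiquitin-conjugating enzyme, and the EDEM1 relatives EDEM2 (-0.80) and EDEM3 (-0.52) fell. OS9 (0.35), a lectin of the same complex as SEL1L, HERPUD2 (0.42) and the VCP cofactor NPLOC4 (0.16) rose. The HERPUD2 call did not hold when vehicle library B was left out (adjusted p = 0.0593). That of NPLOC4 was lost under DESeq2 (adjusted p = 0.0671), with no count filter (0.0787), and without vehicle library A (0.277), vehicle library B (0.0918) or DB2115 library A (0.165).

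Of 26 genes of ER translocation, signal peptidase and oligosaccharyltransferase, 16 fell (61.5%, against 31.3% of all genes) and 3 rose (11.5%, against 32.7%). The median was -0.24, and under upper-quartile scaling 13 fell and 5 rose. SRPRB, a subunit of the receptor for the signal recognition particle, fell most of the named genes (102 ± 4.27 to 32.2 ± 1.93 CPM, -1.67), with SRP72 (-0.61) and the oligosaccharyltransferase subunit STT3B (-0.59). SSR1 (0.46), SEC61A1 (0.19) and SEC62 (0.16) rose. The SEC61A1 call did not hold when vehicle library B was left out (adjusted p = 0.162). That of SEC62 was lost under DESeq2 (adjusted p = 0.0631), with no count filter (0.0804), and without vehicle library A (0.0842), vehicle library B (0.270) or DB2115 library A (0.0905). The list of other sensors and ATF6-like factors had 9 of 11 genes tested, ERN2 and WFS1 being too low, with 5 higher and 3 lower (6 and 2 under upper-quartile scaling) and a median of 0.84. Here 33.3% fell, again close to the 31.3% of all genes, and 55.6% rose, against 32.7%. Among the rises were CREB3L1 and CREB3L3 (0 and 1 counts in vehicle, 20 and 25 with DB2115). Both passed the filter on low counts through their DB2115 libraries, and the 55.6% and the median of 0.84 include them. The ATF6-like membrane factors CREB3L2 (42.0 ± 0.408 to 76.6 ± 2.21 CPM, 0.87), CREB3 (0.92) and CREB3L1 (3 and 6 counts in vehicle, 78 and 106 with DB2115, 4.21) rose. TRAF2 (-0.86), an adaptor of IRE1α, and the proteases that cut ATF6, MBTPS2 (-0.94) and MBTPS1 (-0.17), fell. The call of MBTPS1 was lost under upper-quartile (adjusted p = 0.349) and total-count scaling (0.338), with 1 CPM required in 3 libraries (0.242), under DESeq2 (0.0830), and without vehicle library A (0.117), vehicle library B (0.146) or DB2115 library B (0.138). A gene nearly silent in vehicle could enter these tests only by rising.

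**Figure D4:**
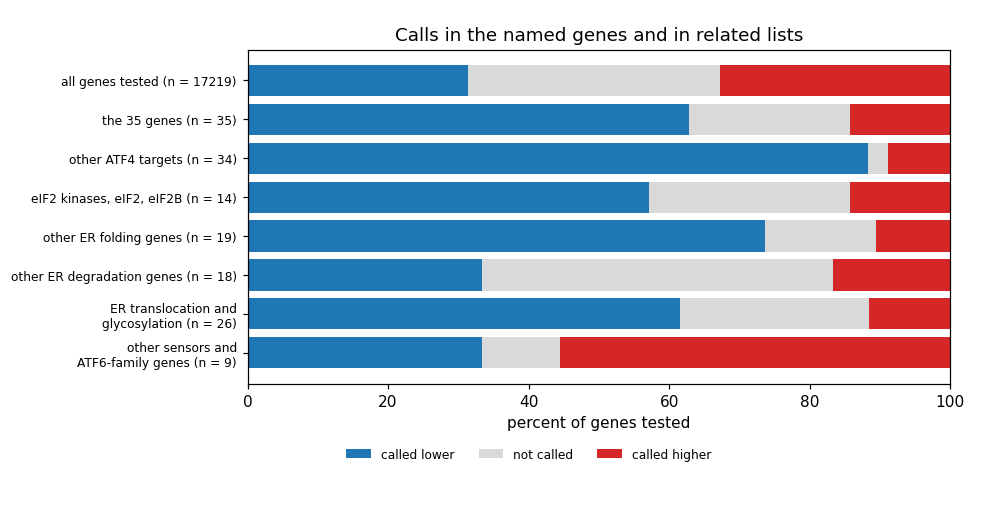
Percent of tested genes called lower (blue), not called (grey) and called higher (red) with DB2115 among all genes, the 35 genes and 6 lists of other genes of the same pathways, with the number tested beside each name. The blue part is 31.3% for all genes, 62.9% for the 35 genes and 88.2% for the other ATF4 targets, whereas the list of other sensors has more red (55.6%) than blue (33.3%). The red part of that list includes CREB3L1 and CREB3L3, which were nearly silent in vehicle.

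Markers of the labelled cell type were present in both groups, and markers of other cell types were not all silent. All 9 myeloid markers listed (PTPRC, CD33, SPI1, FLT3, MPO, LYZ, ANPEP, CD4 and CSF2RA) had counts, although ANPEP stayed under 1 CPM in vehicle. Of the 9, 4 rose (44.4%, against 32.7% of all genes tested), 4 fell (44.4%, against 31.3%) and SPI1 was not called. PTPRC, which encodes the leukocyte antigen CD45, fell 6.04-fold, from 205 and 203 CPM to 35.2 and 32.3 CPM, and FLT3, a receptor kinase of progenitors, fell 3.10-fold, from 441 and 422 CPM to 138 and 140.2 CPM. LYZ (2.38-fold) and CSF2RA (2.10-fold) also fell. MPO, the granule enzyme myeloperoxidase, rose 5.52-fold, from 51.2 and 54.1 CPM to 299 and 282 CPM. ANPEP, the surface peptidase CD13, rose from 12 and 5 counts (0.342 and 0.121 CPM) to 165 and 208. CD33 (1.56-fold) and CD4 (1.39-fold) rose less. The myeloid markers thus changed in both directions alongside the 35 genes, and their summed level covers these opposite changes. That sum was 1369 and 1336 CPM in vehicle and 1151 and 1076 CPM with DB2115. Of 12 markers of lymphoid, erythroid, epithelial, stromal, endothelial and liver cells, 7 stayed under 1 CPM in all 4 libraries. The summed level of the 12 was 86.2 and 76.2 CPM in vehicle and 210.1 and 221 CPM with DB2115. PECAM1, which myeloid cells also express, accounted for most of it, with 74.5 and 70.8 CPM in vehicle and 168 and 168 CPM with DB2115. COL1A1 and CD3E were among the others called higher. CD3E had 1 and 0 counts in vehicle and 46 and 10 with DB2115. It passed the filter on low counts through its DB2115 libraries, which lay far apart. The part of these marker changes in the values of the 35 genes was not tested.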

How the data were processed

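The authors deposited a table of unnormalised read counts for Ensembl gene identifiers. Per the submitters' processing notes, the build was hg38 and the tools included STAR, FastQC and DESeq2. No source used here gives versions, annotation, counting tool or strand setting. Of 58381 identifiers, 58261 received a symbol, with coordinates and exon lengths from GENCODE release 29. Exon length is that of all annotated exons of a gene merged. The third column of each group was left out, and all 6 columns could be assigned to a group. Counts from the 4 other columns were scaled by TMM. Genes were kept by filterByExpr with a minimum count of 10 and a minimum total of 15, and the 17219 retained were tested for treatment alone by edgeR 4.0.16 (R 4.3.3, glmQLFit and glmQLFTest). The common biological coefficient of variation was 6.33%. Standard errors are the log2 fold change divided by the square root of its F value. The fit was also run on simulated counts in which few genes changed. In these data most genes were called, so that run does not test the scaling used here. Promoter windows came from RefSeq (35116 windows, GRCh38.p14), and a gene counted as matched if any of its windows held the letters. Sums were compared by exact permutation tests in Python 3.11.15. Alternatives used other scaling factors and filters, DESeq2 1.42.0, limma-voom (limma 3.58.1), a stricter threshold, a block and each library left out. The 35 genes and all lists were chosen with earlier results of these data known. Named genes were all 35 and, per list, up to 3 genes with the smallest adjusted p in each direction. Printed promoters were the 3 lowest and 3 highest fold changes with a match, limited to 30 bases or to the stretch outside annotated UTRs where transcripts overlapped. Some cell type markers are not reported by name here.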

Additional observations from a re-analysis of the deposited data

How the results depend on the processing

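Over 13 alternatives, 417 of 454 values of the 35 genes kept their direction and side of the threshold, 16 lost and 9 gained a call, and 12 changed sign without a call; 25 genes kept both throughout. With 1 CPM required in 3 libraries no gene was called at least 2-fold higher (0), since NUPR1 was removed, and the median was -0.42, against -0.49 with the usual filter and -0.39 under upper-quartile and total-count scaling. Upper-quartile and total-count scaling also moved the median of all genes tested up by 0.095. Those scalings gave 5 other folding genes higher in place of 2 and 5 translocation genes in place of 3. Upper-quartile factors gave 5 other degradation genes higher in place of 3. DESeq2 gave 1 eIF2 gene and 1 folding gene higher, each in place of 2, and adjusted p under 0.01 gave 1 each and 1 translocation gene. With each library left out, genes called higher numbered 1 to 2 (eIF2 and folding), 1 to 3 (degradation) and 1 to 4 (translocation). With a library left out, the log2 fold change was -0.0348 to 0.0221 for ERN1 (-0.0105 with no filter), -0.0403 to 0.0794 for CRELD2 and -0.1855 to 0.0324 for SEC61B. Under upper-quartile scaling, total-count scaling and 1 CPM in 3 libraries, ATF6 was 0.0762, 0.0761 and 0.0637, and SEC61B was 0.0301, 0.0298 and 0.0171. The cause of these shifts was not tested, apart from the removal of NUPR1.

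With the column letter as a replicate block, 24 of the 35 genes fell and 5 rose, PDIA3 and DERL1 being added. Shares of all genes called are given for the main fit only, so counts under this and the other alternatives have no such share beside them. The letters share only a label: deviations of same-letter libraries correlated at 0.203 over 5779 genes, with 2 pairs. With 2 libraries per group and no stated culture, small changes such as those of ATF3, DERL2 and SEL1L are least certain. Standard errors of genes with few counts are imprecise.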
